A study of Mus musculus with 8 samples.

Results

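The genes described here are 37 DNA repair and genome stability genes of the mouse, chosen by name, with every m6A peak whose midpoint lay inside the span of such a gene on its strand. They held 150 of the 17068 deposited peaks, or 0.879%, and all but 3 of the genes held at least 1. N6-methyladenosine (m6A) is a methyl mark that the METTL3 complex places on adenosines of RNA, mostly within the DRACH sequence, of which GGACT is the best known form. The mark had been mapped by ChrMeRIP-seq, in which fragments of RNA still bound to chromatin, much of it not yet spliced, are precipitated with an m6A antibody and sequenced beside their input. All 8 libraries came from E14 mESC, an established line of mouse embryonic stem cells, grown with serum and LIF on gelatine. They formed 4 groups of 2 replicates, namely SySy_ChrMeRIP and SySy_Input for the antibody of Synaptic Systems, and Abcam_ChrMeRIP and Abcam_Input for that of Abcam.

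The authors called peaks on the duplicates of each antibody together and sorted them into 3 confidence groups. Confidence group 1 (Cfg1) holds 5277 peaks called with both antibodies, Cfg2 holds 5472 called with SySy where Abcam signal stayed under the calling threshold, and Cfg3 holds 6319 called with Abcam alone. The lists give intervals with no height and no value per library, so depth is unknown, no error between replicates can be given, and all intervals and p-values below cover counting error only. The labels name the same library kit for all samples and the study's methods name a different kit for each antibody, so antibody and library preparation cannot be told apart. A peak also needs a transcribed gene, and in a gene without a peak low methylation and low expression cannot be told apart. The labelled cell type was checked by presence of peaks only: 9 of 10 embryonic stem cell marker genes held a peak of some list and 1 of 5 fibroblast marker genes did (Fn1, with 2 Cfg2 peaks). Over all protein-coding genes 25.1% held one, so the fibroblast count was near the general share and says little by itself. Peaks were placed by their midpoint on 1 transcript per gene, that with the longest coding sequence, in GENCODE M21 coordinates of mm10.

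The members cover the main ways in which a cell repairs its DNA. Homologous recombination mends double-strand breaks by copying an intact sister strand, through resection of the ends and the work of the BRCA1, PALB2 and BRCA2 proteins. The ATM, ATR and DNA-PKcs kinases signal breaks and stalled forks, the Fanconi anaemia proteins unhook crosslinks between strands, and mismatch and nucleotide excision repair remove mispaired and bulky bases. Embryonic stem cells divide fast with short gap phases.

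The sequences around the methylation motif are shown first, since they are the candidate sites that the peaks contain. GGACT was looked for on the strand of each peak, and the occurrence nearest the midpoint is printed in capitals with 12 bases on each side, 5′ to 3′, for all 16 Cfg1 peaks of members that held it and for the 2 intronic Cfg2 peaks that did. The reference sequence is that of GRCm38, and a match does not say that the adenosine in it is methylated.
Brca2 intron 2, Cfg1, chr5:150528838-150528866, plus strand: actttgaaagttGGACTagatgcattttg
Atrip exon 8, Cfg1, chr9:109065504-109065532, minus strand: tggggtgcctggGGACTctgcgacacata
Prkdc exon 86, Cfg1, chr16:15841932-15841960, plus strand: atatccttggcaGGACTtgggaaggatgg
Trp53bp1 exon 12, Cfg1, chr2:121236624-121236652, minus strand: tgggttctcccaGGACTgaggaagacaga
Mdc1 exon 5, Cfg1, chr17:35847779-35847807, plus strand: ggcacatctgcaGGACTgcctagctggta
Rif1 intron 1, Cfg2, chr2:52072916-52072944, plus strand: gagctgcggagcGGACTtcccgcgtgggg
Rif1 exon 30, Cfg1, chr2:52112325-52112353, plus strand: agtagccactgaGGACTttaattcaggta
Fanci intron 11, Cfg2, chr7:79412518-79412546, plus strand: ttgtgggatggcGGACTgagagcgaagag
Fancm exon 14, Cfg1, chr12:65106361-65106389, plus strand: aagaagagctgaGGACTgacggacagact
Slx4 intron 1, Cfg1, chr16:4001068-4001096, minus strand: gccagacccctaGGACTacaaagcaaggg
Slx4 exon 15, Cfg1, chr16:3979655-3979683, minus strand: gttgtcccctttGGACTcagagcacaccc
Msh6 exon 4, Cfg1, chr17:87984731-87984759, plus strand: gttgctcagggtGGACTtagaaggaaaag
Msh6 exon 4, Cfg1, chr17:87986570-87986598, plus strand: gctcggaagaccGGACTcatcactccaaa
Mlh3 exon 2, Cfg1, chr12:85266229-85266257, minus strand: aacagaatgacaGGACTtagcacattcgt
Ercc5 exon 8, Cfg1, chr1:44167585-44167613, plus strand: gagctacaaaacGGACTctacccacttga
Polq exon 16, Cfg1, chr16:37062762-37062790, plus strand: cagtctcaggatGGACTgctgttaactca
Rev3l exon 13, Cfg1, chr10:39822224-39822252, plus strand: gagcagtcttttGGACTatatggaaataa
Rev3l exon 14, Cfg1, chr10:39827780-39827808, plus strand: ttttccttggaaGGACTtcgcctgtggaa

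An intronic Cfg1 peak of Brca2 held 3 GGACT, the most of any peak of a member, and is printed whole for that reason, which was seen only in the data. It is 222 nt long, and the capitals again mark GGACT.
Brca2 intron 2, Cfg1, chr5:150528746-150528967, plus strand: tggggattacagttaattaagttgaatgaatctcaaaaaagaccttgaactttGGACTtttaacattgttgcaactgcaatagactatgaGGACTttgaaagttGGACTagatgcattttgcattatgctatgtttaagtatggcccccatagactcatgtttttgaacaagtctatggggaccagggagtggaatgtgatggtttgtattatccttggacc
All of its bases, like those of the Cfg2 peak upstream of it in the same intron, are soft-masked as repetitive sequence in the assembly.

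Of the 37 genes, 34 held a peak of some list (91.9%). Over all 21951 protein-coding genes the share was 25.1%, and over the 11042 genes whose transcript was at least as long as the shortest of the members (2533 nt), 36.8%. Each list by itself reached 23 members (62.2%), against 12.1% of all protein-coding genes for Cfg1, 13.7% for Cfg2 and 13.3% for Cfg3, or 19.7%, 21% and 20.1% of the genes of matching minimum length. Cfg1 or Cfg2, the lists called with SySy, reached 30 members, against 19.7% of all protein-coding genes and 30% of those of matching minimum length. The members are long genes, with a median spliced length of 5224 nt against 2546 nt for all protein-coding genes, a median coding length of 4206 nt against 1176 nt, and a median genomic span of 52470 nt against 17403 nt. These shares are descriptions without a test, and the part of length and expression in them was not tested. The genes were also listed with earlier results of these data known, so their high share does not stand for DNA repair genes as a class. In 94 other genes of the same pathways the share with a peak of some list was 54.3%.

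By list, the members held 62 Cfg1, 41 Cfg2 and 47 Cfg3 peaks, which is 1.17%, 0.749% and 0.744% of each list. Brca2 and Msh6 held 11 peaks each, Mdc1 held 10, and Slx4 and Rev3l held 8. Peaks of all 3 lists were found in 11 members. The share of all protein-coding genes with all 3 lists was not counted, so this number is a description only. Nbn, Rbbp8, Atr and Helq carried Cfg3 peaks only, while Mre11a, Fanca and Fancd2 carried none. Neighbouring intervals are not separate calls in many cases: the 103 Cfg1 and Cfg2 peaks came from 70 called regions, 58 of the peaks were parts of a call that the authors had split between summits, and 7 regions were divided between Cfg1 and Cfg2. The 47 Cfg3 peaks came from 41 called regions, and 17 of these peaks were parts of a split call.

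**Figure D1:**
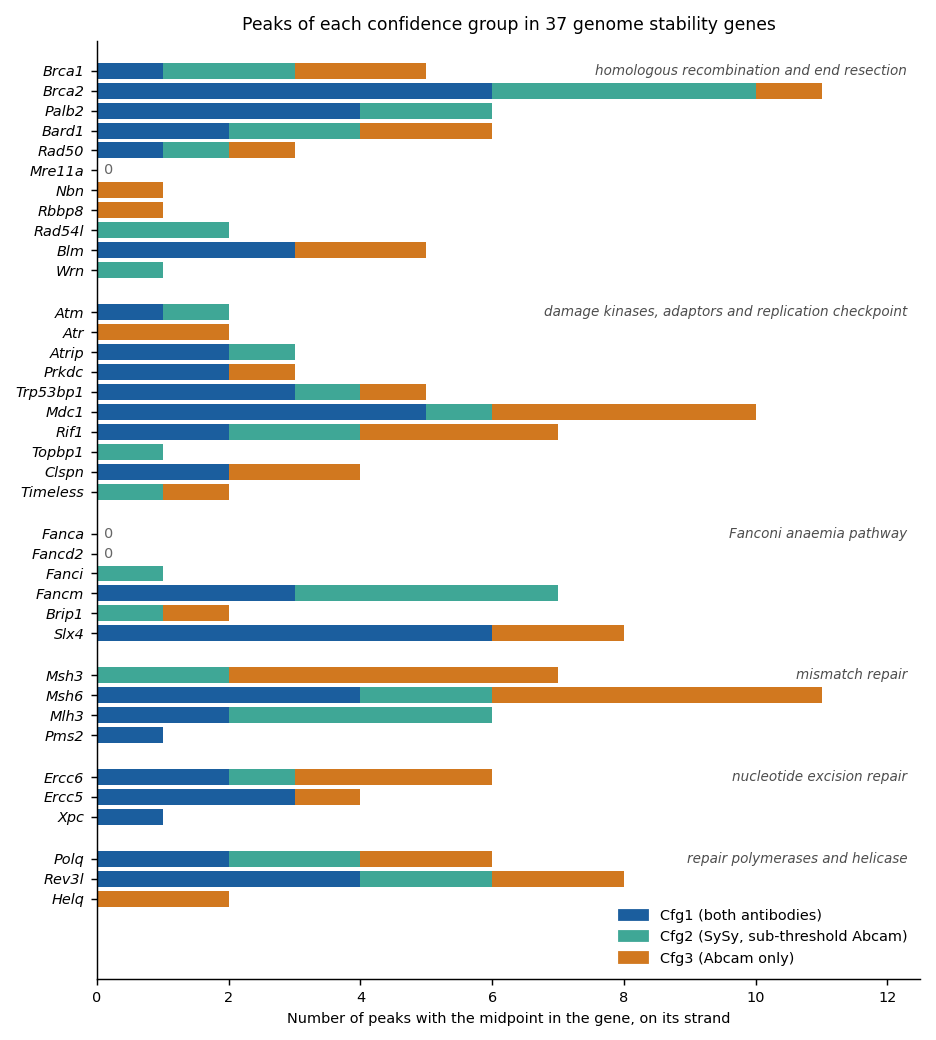
Number of peaks in each of the 37 genes (horizontal axis), stacked by confidence group and ordered by role. Brca2 and Msh6 reach 11 peaks, and Mre11a, Fanca and Fancd2 have 0.

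The first comparison asked which regions of the genes carry peaks, and whether the 3 lists differ in this. SySy-called peaks of the members were almost all exonic, whereas Abcam-only peaks were divided between exons and introns. Of Cfg1 peaks, 59 of 62 lay in an exon (95.2%, 95% Wilson interval 86.7 to 98.3%), of Cfg2 peaks 35 of 38 (92.1%, 79.2 to 97.3%), and of Cfg3 peaks 27 of 47 (57.4%, 43.3 to 70.5%). A further 3 Cfg2 peaks lay past the ends of the transcript used, in exons of another transcript. The Cfg1 share exceeded the Cfg3 share by 37.7 percentage points (22.2 to 52.2, two-sided Fisher's exact test, adjusted p = 1.18e-05) and the Cfg2 share exceeded it by 34.7 points (16.3 to 49.7, adjusted p = 0.0013), with p-values adjusted over 6 tests. Between Cfg1 and Cfg2 the difference was 3.06 points (-6.85 to 16.3, exact test, adjusted p = 0.788). Since peaks of a gene are not independent, 1 peak per gene and list was also taken, the one nearest the gene start. The excess over Cfg3 was then 43.5 points for Cfg1 (exact test, adjusted p = 0.0185) and 37.9 points for Cfg2 (adjusted p = 0.0343). This rule kept an intronic Cfg3 peak in genes such as Brca1 and Msh6 that also held exonic ones, and no other choice of peak was tried. Across all protein-coding genes, which set the general pattern of these lists, 93.5% of Cfg1, 89.2% of Cfg2 and 42.3% of Cfg3 peaks were exonic.

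Within exons, the peaks of these genes sat mainly in coding sequence, far upstream of the stop codon. Coding sequence held 81 of the 94 exonic Cfg1 and Cfg2 peaks (86.2%, 77.8 to 91.7%), against 58.5% over all protein-coding genes. The transcripts of the members are themselves mostly coding, with medians of 4206 coding and 5224 spliced nt. Over all protein-coding genes these medians are 1176 and 2546 nt. The part of this make-up in the coding share and in the distances from the stop codon was not tested. Only 13 lay within 200 nt of the stop codon (13.8%, 8.26 to 22.2%), where the general share was 23.9%, and the median midpoint was at -2539 nt relative to the stop codon, against -343 nt over all genes. With the longest spliced transcript of each member in place of that with the longest coding sequence, the coding share was 70% (59.9 to 78.5%). The last exon held 17 peaks (18.1%) against 60.1% in general. Exons of 1000 nt or more held 58 of the 94 (61.7%, 51.6 to 70.9%). Over all protein-coding genes that share was 71%. Internal exons of that length held 50 (53.2%, 43.2 to 63%), against 15.3% over all genes.

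Long internal exons were where most of the methylated regions of these genes were found, a pattern described after the positions had been seen. The members have 904 internal exons with a median length of 131 nt, of which 32 reach 500 nt. Of these 32, 26 held the midpoint of a Cfg1 or Cfg2 peak (81.2%), while of the 872 shorter ones 5 did (0.573%). Of the 15 internal exons of 1000 nt or more, 14 held such a peak (93.3%), as did 12 of the 17 of at least 500 but under 1000 nt (70.6%). The same contrast by length ran through the whole transcriptome: 32.9% of internal exons of 500 nt or more and 0.231% of shorter ones held one over all protein-coding genes, and 74.3% and 0.937% in the genes that held an exonic Cfg1 or Cfg2 peak at all. In the 28 members with such an exonic peak the shares were 89.7% (26 of 29) and 0.794% (5 of 630). Cfg3 midpoints fell in 14 of the 32 long and 4 of the 872 shorter internal exons of the members (43.8% and 0.459%), against 13.2% and 0.254% over all protein-coding genes.

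The longest internal exon of each gene made up 22.7% of the spliced length of the 28 members and held 52 of their 94 exonic Cfg1 and Cfg2 peaks (55.3%, 45.3 to 65%). In the 3572 protein-coding genes with an exonic peak of these lists and an internal exon, it made up 13% of the length and held 28.3% of the peaks. The median longest internal exon was 730 nt in the members and 214 nt over all protein-coding genes. Among longest internal exons of 1000 nt or more, the shares were 62.1% in the members and 58.7% over all protein-coding genes. From 500 to under 1000 nt they were 62.5% and 49.2%, and under 500 nt 8.33% and 4.64%. How far the length of the longest internal exon accounts for the contrast was not tested. Where that exon had 1000 nt or more, it carried a Cfg1 or Cfg2 peak in 12 of 13 members, against 43.4% of all protein-coding genes with such an exon. The exception was Mdc1, whose peaks of these lists lay in a shorter exon of 1343 nt. All 13 of these members held an exonic Cfg1 or Cfg2 peak somewhere. Of the 1108 protein-coding genes whose longest internal exon had 1000 nt or more, 572 held an exonic one and 481 held one in that exon. Most of the genes with an exonic peak thus showed the same placement. Of the 27 exonic Cfg3 peaks, 21 lay in the longest internal exon (77.8%, 59.2 to 89.4%), against 33.5% over all protein-coding genes. The latter share also counts genes without an internal exon, and the part of exon length in this contrast was not tested either.

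**Figure D2:**
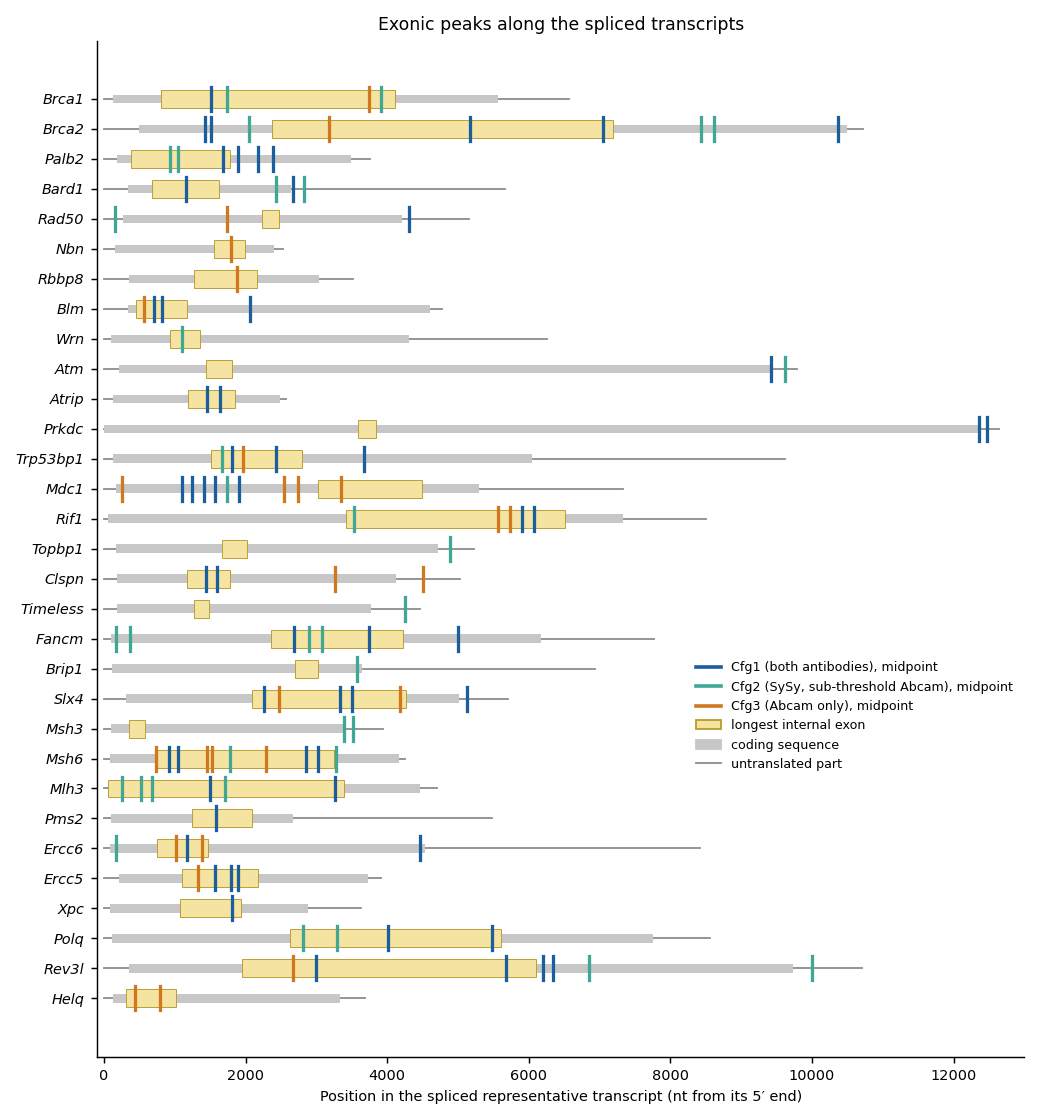
Midpoints of exonic peaks (vertical ticks, coloured by confidence group) along the spliced transcript of each member with an exonic peak, in nt from its 5′ end, with the coding sequence in grey and the longest internal exon in yellow. In Brca1, Rif1, Mlh3, Polq and Msh6 most ticks fall in the yellow box, and in Atm, Prkdc, Topbp1 and Msh3 the Cfg1 and Cfg2 ticks stand at the end of the coding sequence.

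Among the genes of homologous recombination, 8 of 11 held a Cfg1 or Cfg2 peak. Brca1 (chr11:101488764-101551955, minus strand) encodes the ubiquitin ligase that promotes resection of broken ends. Its exonic peaks all lay in exon 10, a coding exon of 3315 nt that makes up 50.4% of the transcript. A Cfg1 peak (chr11:101525813-101526051) and a Cfg2 peak (chr11:101525603-101525811) from the same call lay side by side at 708 and 933 nt from the start of the exon. A further Cfg2 peak (chr11:101523419-101523621) lay 3120 nt in, with a Cfg3 peak (chr11:101523640-101523741) 18 nt away from it, and the other Cfg3 peak (chr11:101551378-101551514) was in intron 1.

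Brca2 (chr5:150522630-150570329, plus strand), whose product acts on the resected single-stranded DNA, held 6 Cfg1, 4 Cfg2 and 1 Cfg3 peaks. Its large exon 11 of 4809 nt, the longest exon of any member with a peak, carried Cfg1 peaks at 2788 nt (chr5:150541328-150541544) and 4672 nt (chr5:150543196-150543445) from its start and the Cfg3 peak (chr5:150539360-150539551) at 807 nt. Exon 10, of 1107 nt, carried a pair of adjoining Cfg1 peaks (chr5:150536142-150536240 and chr5:150536242-150536312) and a Cfg2 peak (chr5:150536746-150536882). Brca2 also held Cfg2 peaks in short exons, exon 18 of 355 nt (chr5:150554251-150554454) and exon 19 of 156 nt (chr5:150556835-150556939). A Cfg1 peak in the last exon (chr5:150569320-150569463) lay 120 nt before the stop codon. Intron 2, of 6190 nt, held the Cfg1 peak with 3 GGACT printed above (chr5:150528746-150528967) 5577 nt downstream of exon 2 and a Cfg2 peak (chr5:150527384-150527510) 4168 nt downstream.

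Palb2 (chr7:122107262-122132985, minus strand), the bridge between BRCA1 and BRCA2, held 6 SySy-called peaks and no Cfg3 peak. At 1.6 exonic SySy-called peaks per kb of spliced transcript it was the densest of the members. These peaks came from 3 called regions in 3750 nt, against 4 in 4251 nt for Msh6, so the rank depends on how calls were split. The Palb2 peaks lay in exons 4 and 5. Exon 4 (1395 nt) held a pair of Cfg2 peaks (chr7:122127834-122127964 and chr7:122127716-122127832) and a Cfg1 peak (chr7:122127022-122127271), and exon 5 (671 nt) held 3 Cfg1 peaks split from a single call (chr7:122124716-122124920, chr7:122124420-122124630 and chr7:122124210-122124418). Bard1 (chr1:71027498-71103146, minus strand), the ligase partner of BRCA1, was divided between its long coding exon and its stop codon. Exon 4 (938 nt) held a Cfg1 peak (chr1:71074875-71075124), and the last exon held a Cfg2 peak 213 nt before the stop codon (chr1:71030645-71030822), a Cfg1 peak 25 nt past it (chr1:71030399-71030591) and a Cfg2 peak 181 nt past it (chr1:71030282-71030397). Its adjoining Cfg3 peaks (chr1:71054102-71054299 and chr1:71053992-71054100) lay in intron 6, 11279 and 11433 nt into it.

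Blm (chr7:80454733-80535119, minus strand), a RecQ helicase that dissolves recombination intermediates, held 3 Cfg1 peaks. A pair of them lay in exon 3, of 716 nt (chr7:80513181-80513296 and chr7:80513065-80513179) next to a Cfg3 peak (chr7:80513321-80513443) and the third in exon 7, of 671 nt (chr7:80502411-80502559), while a Cfg3 peak (chr7:80518398-80518517) lay in intron 1. Wrn, the related helicase of Werner syndrome, held a single Cfg2 peak, in exon 9 of 427 nt, its longest internal exon. Rad50 (chr11:53649519-53707319, minus strand), the structural subunit of the end-sensing MRN complex, has no internal exon above 238 nt, and its peaks lay elsewhere. They were a Cfg1 peak 102 nt past the stop codon (chr11:53650243-53650492), a Cfg2 peak in the 5′ UTR 157 nt from the start of the gene (chr11:53707099-53707226) and a Cfg3 peak in exon 10 (chr11:53688185-53688337). Antibodies of this kind are known to bind m6Am next to the cap as well, so the type of modification at such a start cannot be told from a peak. The same limit holds for the Cfg2 peaks 177 nt from the start of Fancm and 182 nt from that of Rif1. Of the other MRN subunits, Mre11a, which encodes the nuclease, had no peak and Nbn had 1 Cfg3 peak, in exon 11. Rbbp8, which encodes the resection factor CtIP, also had 1 Cfg3 peak in exon 11, of 886 nt, and Rad54l, a recombination motor, had a pair of Cfg2 peaks from a single call in an exon of an alternative transcript.

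All 10 genes of the kinases, adaptors and replication checkpoint held a peak. Atm, the kinase activated by double-strand breaks, and Prkdc, which encodes DNA-PKcs, the kinase of end joining, held their SySy-called peaks at the end of very long coding sequences. In Atm, of 9787 nt and 64 exons, a Cfg1 and a Cfg2 peak of the same call lay 12 and 205 nt past the stop codon. In Prkdc, of 12647 nt, a pair of Cfg1 peaks lay 30 nt before (chr16:15841897-15841993) and 89 nt past the stop codon (chr16:15841995-15842134), and a Cfg3 peak lay in intron 1 (chr16:15640120-15640362). No internal exon of these genes exceeds 372 nt. Atr, the kinase of stalled forks, held Cfg3 peaks only, 1 each in introns 6 and 23, although its exon 4 has 878 nt. Its partner Atrip (chr9:109057933-109074124, minus strand) instead held a pair of Cfg1 peaks in exon 8 of 672 nt (chr9:109065451-109065587 and chr9:109065232-109065449), and a Cfg2 peak (chr9:109058284-109058526) past the end of its transcript that also lies in Trex1 and cannot be assigned to either gene.

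Trp53bp1, Mdc1 and Rif1 encode large adaptors that gather on chromatin around breaks. Mdc1 (chr17:35841515-35859670, plus strand), the reader of phosphorylated H2AX, held 6 SySy-called intervals split from 1 called region. They followed each other inside exon 5, of 1343 nt, running from chr17:35847602-35847718 through chr17:35847720-35847891, chr17:35847893-35848062, chr17:35848064-35848201 and chr17:35848203-35848379 to chr17:35848381-35848564, the fifth being Cfg2 and the others Cfg1. Its longest internal exon, exon 10, which has 1474 nt, held a Cfg3 peak alone (chr17:35852682-35852794), and the other Cfg3 peaks were in exon 8 (chr17:35850474-35850665 and chr17:35850667-35850876) and exon 2 (chr17:35844462-35844564).

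Trp53bp1 (chr2:121193281-121271407, minus strand) encodes 53BP1, which restrains resection. In its exon 12 (1297 nt) a Cfg2 (chr2:121236645-121236783), a Cfg1 (chr2:121236491-121236643) and a Cfg3 peak (chr2:121236361-121236450) followed each other, a further Cfg1 peak (chr2:121235893-121236005) lay 921 nt in, and another (chr2:121215645-121215894) lay in exon 17 of 505 nt. Rif1 (chr2:52072832-52122383, plus strand), its effector and a regulator of replication timing, held its exonic peaks in exon 30 of 3090 nt. There, 2 Cfg3 peaks (chr2:52111968-52112141 and chr2:52112143-52112301) ran into 2 Cfg1 peaks (chr2:52112322-52112447 and chr2:52112449-52112666) at 2474 and 2647 nt from its start, and a Cfg2 peak (chr2:52109903-52110123) sat at 103 nt. Rif1 also held a Cfg2 peak in intron 1 (chr2:52072890-52073139), an intron of 270 nt, 182 nt from the start of the gene, where 81.6% of bases were G or C, and a Cfg3 peak in intron 7 (chr2:52078595-52078844).

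The replication checkpoint genes carried between 1 and 4 peaks each. Clspn (chr4:126556935-126593903, plus strand), whose product claspin passes the signal of ATR to CHK1, held a pair of Cfg1 peaks in exon 8 of 611 nt (chr4:126566174-126566305 and chr4:126566307-126566489) and Cfg3 peaks in exon 19 (chr4:126585803-126585904) and in the 3′ UTR (chr4:126593307-126593445). Topbp1, the activator of ATR, held a Cfg2 peak 172 nt past the stop codon, and Timeless, of the fork protection complex, a Cfg2 peak 477 nt past it and a Cfg3 peak in intron 18.

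In the Fanconi anaemia group, peaks were found in 4 of 6 genes and were concentrated in Fancm and Slx4. Fanca, of the core ligase complex, and Fancd2, its ubiquitinated substrate, held none. No internal exon of Fanca exceeds 191 nt and none of Fancd2 147 nt. Fanci, the partner of FANCD2, held a single Cfg2 peak in intron 11 (chr7:79412477-79412655), 1313 nt into an intron of 1365 nt, so that the interval ran into exon 12. Fancm (chr12:65075603-65132058, plus strand), the DNA translocase that anchors the core complex, held 3 Cfg1 and 4 Cfg2 peaks and no Cfg3 peak. In exon 14 (1864 nt) a Cfg1 peak (chr12:65105248-65105472) was followed by 2 adjoining Cfg2 peaks (chr12:65105474-65105655 and chr12:65105657-65105835), and a separate Cfg1 peak with 2 GGACT (chr12:65106296-65106545) lay 1393 nt in. Exon 20 held a Cfg1 peak (chr12:65121641-65121887), and the first exon held a pair of Cfg2 peaks from the same call (chr12:65075702-65075858 and chr12:65075860-65076080), 177 and 367 nt from the start of the gene.

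Slx4 (chr16:3979105-4003770, minus strand), the scaffold that holds several structure-specific nucleases, had 6 Cfg1 peaks, as many as Brca2. Exon 11 (2186 nt) held 3 of them (chr16:3986931-3987080, chr16:3985873-3985988 and chr16:3985645-3985871) and both of its Cfg3 peaks (chr16:3986678-3986891 and chr16:3985013-3985151), and 1 lay in the 3′ UTR 124 nt past the stop codon (chr16:3979574-3979820). The other 2 were intronic, 84 and 245 nt into intron 1 (chr16:4001203-4001351 and chr16:4001031-4001201), at positions that are exonic in another annotated transcript. Brip1, the FANCJ helicase, held a Cfg2 peak 72 nt before its stop codon and a Cfg3 peak 12605 nt into intron 16, of 30797 nt.

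All 4 mismatch repair genes held SySy-called peaks, and Msh6 and Msh3, which encode mismatch recognition subunits, differed in where. Msh6 (chr17:87975062-87990892, plus strand), whose product recognises single mispairs, has a coding exon 4 of 2536 nt, 59.7% of its transcript, and 9 of its 11 peaks lay there. Along that exon came a Cfg3 peak (chr17:87984393-87984524), 2 Cfg1 peaks (chr17:87984587-87984699 and chr17:87984701-87984844), 2 Cfg3 peaks (chr17:87985147-87985215 and chr17:87985217-87985287), a Cfg2 peak (chr17:87985414-87985614), a Cfg3 peak (chr17:87985973-87986076) and 2 Cfg1 peaks (chr17:87986500-87986661 and chr17:87986663-87986855). A Cfg2 peak just beyond it in exon 5 (chr17:87988158-87988275) and a Cfg3 peak in intron 1 (chr17:87975724-87975824) completed the set. Msh3 (chr13:92211872-92355003, minus strand), for larger loops, has no internal exon above 221 nt. Its SySy-called peaks, a pair of Cfg2 peaks of a single call, lay 11 and 133 nt past the stop codon (chr13:92212365-92212484 and chr13:92212241-92212363). All 5 of its Cfg3 peaks were intronic and are described with the introns.

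Mlh3 (chr12:85234520-85270599, minus strand), which also acts in meiotic crossing over, held all 6 of its peaks in exon 2, of 3323 nt, which is 70.7% of the transcript. They were 3 Cfg2 peaks towards its 5′ end (chr12:85269201-85269374, chr12:85268931-85269105 and chr12:85268798-85268929), a Cfg1 peak and a Cfg2 peak in the middle (chr12:85267937-85268149 and chr12:85267739-85267918) and a Cfg1 peak near its 3′ end (chr12:85266177-85266368). Pms2, which encodes a mismatch repair nuclease, held a single Cfg1 peak of 250 nt in exon 11, of 853 nt.

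The 3 genes of nucleotide excision repair each held Cfg1 peaks in their longest internal exon. Ercc6 (chr14:32513521-32580990, plus strand), the Cockayne syndrome factor CSB of transcription-coupled repair, had a Cfg1 peak in exon 5 of 730 nt (chr14:32526484-32526665) with Cfg3 peaks 3 nt before (chr14:32526349-32526480) and 56 nt after it (chr14:32526722-32526843). It also held a Cfg1 peak 75 nt before the stop codon (chr14:32576903-32577152), a Cfg2 peak in exon 2 (chr14:32516960-32517113) and a Cfg3 peak in intron 10 (chr14:32559054-32559186). Ercc5 (chr1:44147744-44181260, plus strand), the XPG nuclease, held 3 Cfg1 peaks (chr1:44167207-44167364, chr1:44167456-44167556 and chr1:44167558-44167657) and a Cfg3 peak (chr1:44166983-44167083), all in exon 8 of 1074 nt. Xpc, the sensor of helix distortion, held 1 Cfg1 peak, in exon 9 of 873 nt.

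Among the polymerases and the helicase, Polq and Rev3l have internal exons of 2981 and 4153 nt. Polq (chr16:37011786-37095417, plus strand) encodes the polymerase of theta-mediated end joining, and its exon 16 held 2 Cfg2 peaks (chr16:37060047-37060284 and chr16:37060545-37060765) followed by 2 Cfg1 peaks (chr16:37061249-37061498 and chr16:37062711-37062960), all separate calls. Both of its Cfg3 peaks lay in intron 9 (chr16:37036830-37037064 and chr16:37038800-37038985). Rev3l (chr10:39732118-39875211, plus strand), the catalytic subunit of the translesion polymerase zeta, held Cfg1 peaks 1046 and 3717 nt into exon 13 (chr10:39822036-39822267 and chr10:39824772-39824873), with a Cfg3 peak (chr10:39821751-39821878) upstream of them. Exon 14, of 896 nt, held 2 adjoining Cfg1 peaks (chr10:39827734-39827883 and chr10:39827885-39828014) and a Cfg2 peak (chr10:39828400-39828500), the 3′ UTR held a Cfg2 peak 278 nt past the stop codon (chr10:39874436-39874569), and intron 9 held a Cfg3 peak (chr10:39809850-39809963). Helq, a helicase of replication-linked repair, held Cfg3 peaks only, both in exon 2 of 709 nt.

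**Figure D3:**
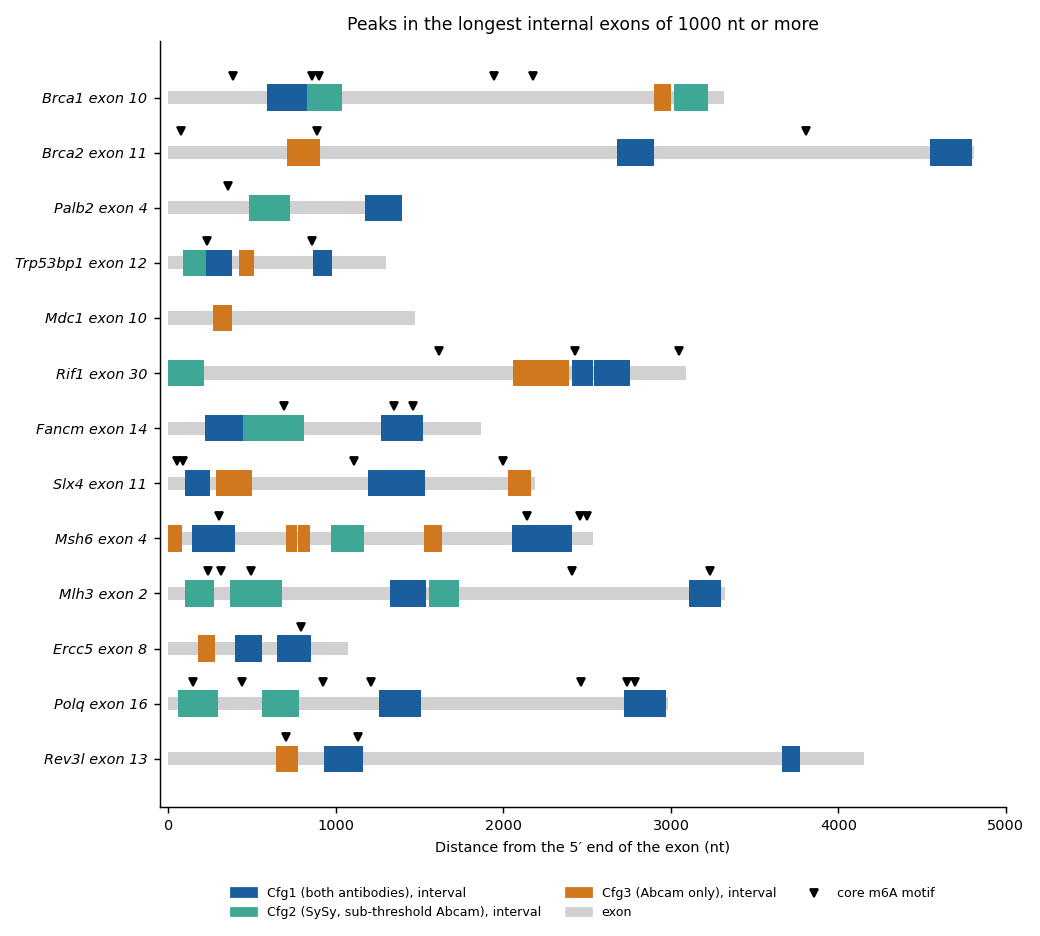
Peak intervals, coloured by confidence group, and occurrences of the core m6A motif (triangles) along the 13 longest internal exons of 1000 nt or more, in nt from the 5′ end of each exon. Cfg1 or Cfg2 intervals are present in 12 of the 13 exons, Mdc1 exon 10 being the exception.

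The next comparison asked whether peaks of the lists differ in the motif they contain. GGACT was present in 16 of 62 Cfg1 peaks (25.8%, 16.6 to 37.9%), 8 of 41 Cfg2 peaks (19.5%, 10.2 to 34%) and 8 of 47 Cfg3 peaks (17%, 8.89 to 30.1%). No difference passed the test: Cfg1 was 8.79 points above Cfg3 (-7.27 to 23.3, two-sided Fisher's exact test, adjusted p = 0.705) and 6.29 points above Cfg2 (-10.9 to 21.5, adjusted p = 0.731), and Cfg2 was 2.49 points above Cfg3 (-13.6 to 19.1, adjusted p = 0.788). Over all protein-coding genes the shares were 38.1% in Cfg1, 31.9% in Cfg2 and 17.1% in Cfg3. For the shorter GGAC the order changed. It was present in 42 Cfg1 peaks (67.7%), 16 Cfg2 peaks (39%) and 31 Cfg3 peaks (66%), so that Cfg1 exceeded Cfg2 by 28.7 points (Fisher's exact test, 9.08 to 45.6, adjusted p = 0.00968). Cfg2 minus Cfg3 was -26.9 points (-44.8 to -6.04, exact test, adjusted p = 0.0271). In all protein-coding genes GGAC was present in 75.3%, 63.6% and 50.6% of Cfg1, Cfg2 and Cfg3 peaks. DRACH (A, G or T, then A or G, then AC, then A, C or T), which is short and degenerate, was present in 61 of 62 Cfg1, 41 of 41 Cfg2 and 45 of 47 Cfg3 peaks of the members, close to the shares of 99.3%, 96.7% and 92.8% over all protein-coding genes.

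Seen from the transcripts, the spliced sequences of the 37 members contain 205 GGACT, and 24 of them lay inside a Cfg1 or Cfg2 peak (11.7%). These peaks covered 7.31% of the spliced bases. In the longest internal exons, 19 of 52 GGACT lay in a peak (36.5%), where peaks covered 20.8% of the bases. In all other exonic sequence 5 of 153 did (3.27%), with 3.83% of the bases covered. Most occurrences of the motif in these messages were therefore outside the called regions, and most called regions had none. Among the sequences printed above, the middle of the motif lay nearest the midpoint in the Cfg1 peaks of Atrip exon 8 and Prkdc exon 86, at 1 nt, and in Msh6 exon 4 and Brca2 intron 2, at 4 nt.

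**Figure D4:**
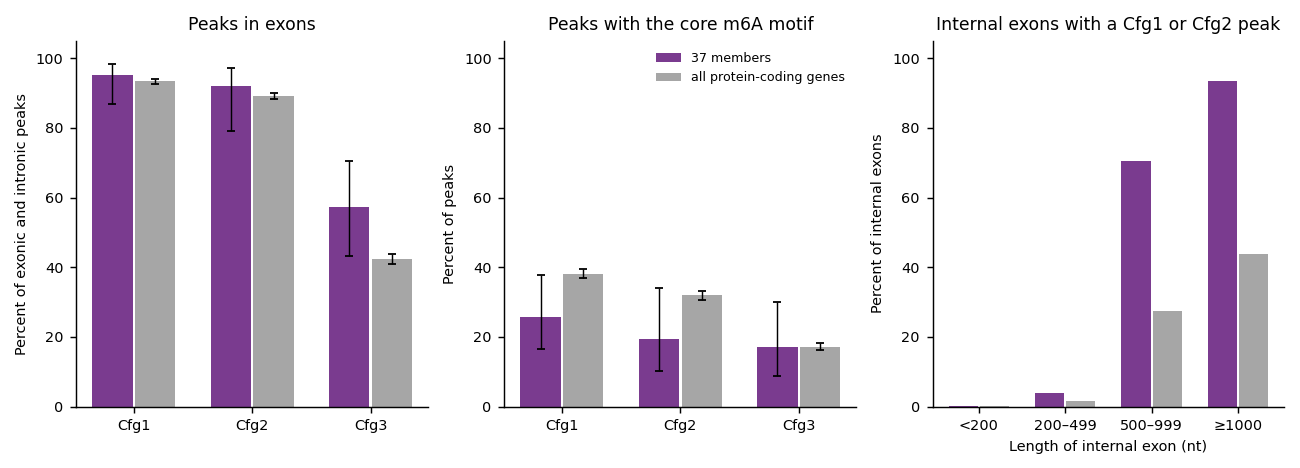
Left, percent of exonic and intronic peaks that are exonic, and middle, percent of peaks with the core m6A motif, by list, for the 37 members (purple) and all protein-coding genes (grey), with 95% Wilson intervals. Right, without error bars, percent of internal exons that hold a Cfg1 or Cfg2 midpoint by exon length, 93.3% of those of 1000 nt or more in the members and 43.8% over all protein-coding genes. In the protein-coding genes with an exonic Cfg1 or Cfg2 peak, which are not drawn, it is 82.2%.

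Introns were treated separately, since chromatin-associated RNA allows methylation of unspliced sequence to be seen. The members held 6 SySy-called and 20 Cfg3 peaks in introns. The 6 SySy-called ones were the pair of Brca2 intron 2, the pair of Slx4 intron 1, and single peaks of Rif1 intron 1 and Fanci intron 11, and 4 of these 6 held GGACT (66.7%, 30 to 90.3%). The share over all protein-coding genes, 37.9%, lay inside that interval. They fell in 4 genes and shared few features. Those of Slx4 lay within 245 nt of a 5′ splice site. That of Rif1 lay 148 nt from one, but its intron has only 270 nt. Its interval of 250 nt ran into the next exon, so the distance says little about the splice site. That of Fanci lay near the end of its intron, and those of Brca2 lay far inside an intron in soft-masked sequence. The Slx4 pair was the only one of them at positions exonic in another annotated transcript (2 of 6, or 33.3%, against 38.4% over all protein-coding genes).

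The 20 intronic Cfg3 peaks lay in 13 members, a median of 2857.5 nt past the 5′ splice site, in introns with a median length of 8832 nt. Of these peaks 4 held GGACT (20%, 8.07 to 41.6%), near the 16.4% over all protein-coding genes, and 5 lay within 500 nt of the 5′ splice site. The peak in Atr intron 6 was exonic in another transcript (1 of 20, or 5%, against 6.85% over all protein-coding genes). Soft-masked sequence made up more than 50% of 8 of them (40%, 21.9 to 61.3%) and of none of the 94 exonic SySy-called or 27 exonic Cfg3 peaks of the members. Over all protein-coding genes it did so in 22.1% of intronic Cfg3 peaks. Msh3 held the most, with 3 adjoining peaks of a single call 4749 to 5056 nt into intron 8 (chr13:92337443-92337552, chr13:92337280-92337441 and chr13:92337102-92337278) and 2 separate ones in intron 13 (chr13:92284663-92284763 and chr13:92282990-92283180). The latter were soft-masked over 86.1% and 98.4% of their length and the former over at most 20.9%.

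**Figure D5:**
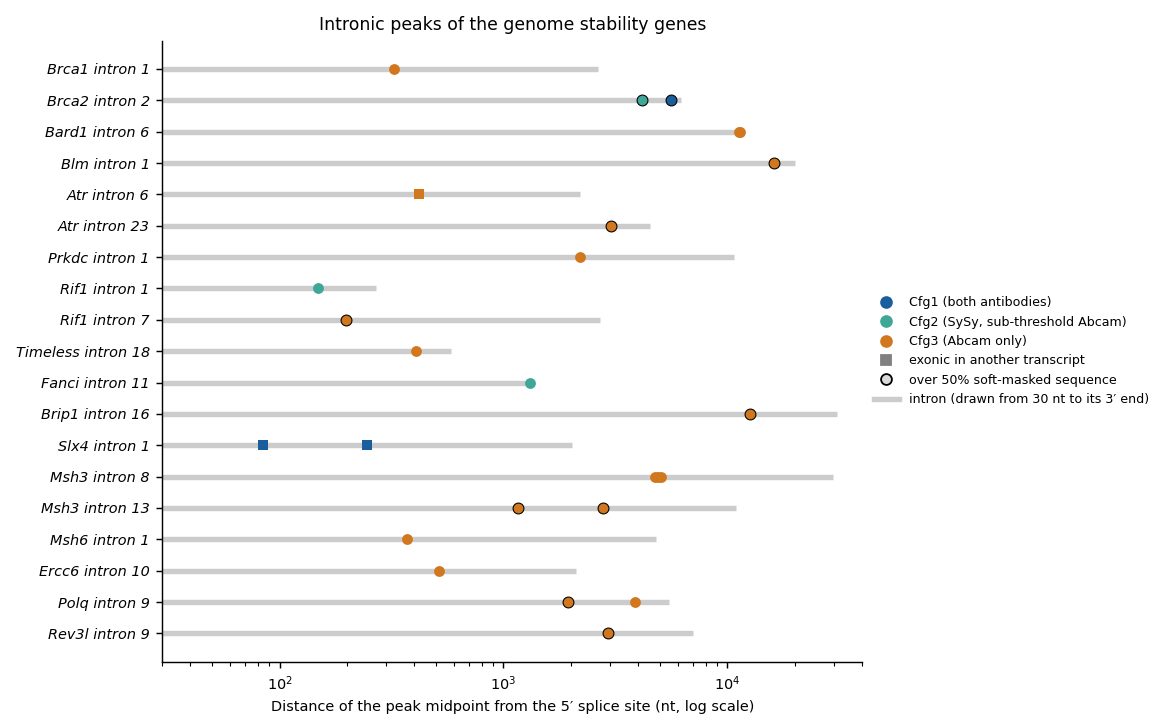
Distance of each intronic peak midpoint from the 5′ splice site (nt, log scale) in each intron of the members with a peak, coloured by confidence group, with the intron as a grey bar and squares for positions exonic in another transcript. The Slx4 pair and the Rif1 intron 1 peak, the latter in an intron of only 270 nt, stand within 245 nt of the splice site. The Brca2 pair stands at 4168 and 5577 nt in soft-masked sequence (black rim).

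Abcam-only peaks in exons often lay near SySy-called ones and those in introns did not. Of the 47 Cfg3 peaks, 15 had a Cfg1 or Cfg2 peak within 500 nt (31.9%, against 15.8% over all protein-coding genes), and all 15 were among the 27 exonic ones. The nearest were those of Ercc6 exon 5 at 3 nt, Brca1 exon 10 at 18 nt, Rif1 exon 30 at 20 nt and Blm exon 3 at 24 nt. Those of Ercc6 and Blm were parts of split calls whose other parts were not among the Cfg3 peaks of these genes. Where those parts went was not traced, so a near Cfg3 peak need not be a separate Abcam call. None shared a base with a SySy-called peak, as the sorting into lists requires. None of the 20 intronic Cfg3 peaks had a SySy-called peak within 500 nt. Of the SySy-called peaks placed in exons or introns, 94 of 100 were exonic, so few lay in introns to be near. Cfg3 peaks were also more often exonic in the members than over all protein-coding genes (57.4% against 42.3%). The part of these placements in both contrasts was not tested.

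Other genes of the same pathways were counted for reference, 94 genes with a median spliced length of 2774.5 nt and a median longest internal exon of 242 nt, against 730 nt in the members. A peak of some list was found in 51 of them (54.3%), a Cfg1 peak in 28 (29.8%), a Cfg2 peak in 20 (21.3%) and a Cfg3 peak in 27 (28.7%). Among those with the most Cfg1 and Cfg2 peaks were the topoisomerase gene Top3a with 6, the glycosylase gene Mbd4 and the translesion polymerase gene Rev1 with 5 each, and the nuclease gene Dclre1c with 3, level with Paxip1 and Rnf168. In Rev1, 4 of the 5 lay in its longest internal exon, and in Top3a 4 of 6. The most Cfg3 peaks were held by the chromatin remodeller gene Atrx with 11, of which 9 were exonic.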

How the data were processed

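ChrMeRIP and input libraries of E14 mESC were aligned to mm10 by the authors, who ran MACS2 2.1.1 on both replicates per antibody together, split calls between summits, trimmed the intervals and set their strand by the stronger enrichment. The deposited lists are intervals whose score column is 0 throughout, so no deposited score or height could be used and a stricter threshold could not be tried. Depth per library is unknown from these lists. One strand entry with a stray mark was read as plus.

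Midpoints were placed on GENCODE M21 transcripts, the study having used a later release. Claspn was read as Clspn. Motifs were searched on the strand of the peak only, and GGACT and GGAC occurrences overlap. Sequence and soft-masking came from GRCm38 (Python 3.11.15, pysam 0.24.0, scipy 1.17.1, numpy 2.4.6, matplotlib 3.10.9). Fisher's exact test, two-sided, compared the lists, with Benjamini-Hochberg adjustment over 6 tests and a threshold of 0.05. These count peaks, which are not replicates and share genes and calls. Shares have 95% Wilson intervals. Placement was tested on simulated positions.

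The members and gene lists were chosen with earlier results of these data known. All members were accounted for, with positions for members with 3 or more peaks and for intronic Cfg1 and Cfg2 peaks. Of the other pathway genes, the 5 with the most Cfg1 and Cfg2 and the 3 with the most Cfg3 peaks were taken, ties by name, and some of these are not reported here. The longest internal exon, the soft-masked share and the count of split calls were added after positions were seen. Alternatives covered the transcript, exon and position rules, overlapping genes, motif and window, the gene with the most peaks, 1 peak per gene and sub-peaks.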

Additional observations from a re-analysis of the deposited data

How the results depend on the processing

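The excess of the exon share over Cfg3 kept its direction and stayed past the threshold under all 7 alternatives, at 36.9 to 43.5 points for Cfg1 (Fisher's exact test, adjusted p 7.38e-07 to 0.0185) and 31.8 to 39.9 points for Cfg2 (adjusted p 2.92e-05 to 0.0343). Counting any base in an exon turned Cfg1 minus Cfg2 to -2.21 points (exact test, adjusted p = 1). With GGAC in place of GGACT, Cfg2 minus Cfg3 was -26.9 points and Cfg1 minus Cfg2 28.7 points, and with DRACH the latter was -1.61 points; the cause was not tested. By construction of the settings, exonic peaks alone left 27 Cfg3 peaks, a window of 100 nt left 7.45% of exonic peaks near the stop codon, exons of 500 nt or more held 91.5%, and 8 Cfg3 peaks had a SySy-called peak within 100 nt and 0 shared a base with one. The longest transcript gave a coding share of 70%. The other 71 values kept their direction and call or stayed within the stated spread. No paired analysis was possible because no list carries values of single libraries, and for the same reason no replicate could be left out. Without counts, depth cannot be weighed for any gene that lacks a peak.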
